A study of Mus musculus with 9 samples.

Results

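The sarcomere genes described here are 36 genes of the contractile filaments and their anchors, chosen as a listed set of symbols and found through the platform annotation of the array, 36 of 20239 genes with 1 symbol. They were divided into 11 thin filament genes, 7 genes of the thick filament, titin and the M-band, 11 Z-disc genes, 5 genes of the desmin network, costamere and intercalated disc, and 2 assembly factors. All 36 passed the filter on low values. Total RNA of entire hearts, each from a male C57BL/6 mouse, was hybridised to 9 Affymetrix arrays, 3 in each of 3 groups, and each value is a log2 intensity summarised by RMA, the array method named in the submitters' processing notes. Every mouse was given an adeno-associated virus at 8 weeks of age, was operated on 4 weeks later, and was killed 4 weeks after that. Sham hearts had the luciferase virus and sham surgery. TAC-luciferase hearts had the same virus and transaortic constriction (TAC), which narrows the aorta and loads the left ventricle with pressure. TAC-HDAC4-NT hearts had TAC and a virus that encoded amino acids 1 to 201 of histone deacetylase 4 (HDAC4). An MLC promoter (myosin light chain) drove the luciferase or HDAC4 sequence in each virus, no sham group with HDAC4-NT was among the 9 arrays, and the labels say nothing of litters or cages, so p-values measure only the spread between these hearts. The sample codes open with a number that no group shared with another, 12 in every sham heart. In TAC-luciferase it was 8 in heart 1 and 9 in hearts 2 and 3. In TAC-HDAC4-NT it was 3 in heart 1 and 4 in hearts 2 and 3. What the number marks is not stated, and its effect cannot be told apart from that of the group.

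The sarcomere shortens when myosin of the thick filament pulls on actin of the thin filament. Troponin and tropomyosin on the thin filament make that pull depend on calcium, titin spans from the Z-disc to the M-band as a spring, and the Z-disc anchors thin filaments of opposite polarity. Z-discs are tied to one another by desmin and to the cell membrane at costameres, and pressure load on a heart is classically accompanied by re-expression of sarcomere isoforms of the fetal heart or of skeletal muscle, with skeletal alpha-actin as the textbook example.

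The scale limits what can be seen of these genes. Once sorted, the values of 1 array equal those of any other, so the highest value of every array is 14.11 and a gene already near it has little room to rise. Actc1 held that highest value on 8 arrays and the second highest, 13.82, on sham heart 1. It was 1 of 7 members (with Tnnt2, Tnni3, Tnnc1, Actn2, Myoz2 and Des) that lay among the 50 highest values on every array, and 14 members lay among the highest 212 (1%) on every array. Each gene has 1 probe set, so splice forms of Ttn, Tpm1 or Ldb3 are not told apart. Differences between the values of paralogues are used only to see whether they changed unequally, since probe sets of different genes do not show which transcript is more abundant. Where the probes of Acta1 and Actc1 lie, and how far each also binds the other's transcript, was not stated and is not known here.

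The comparison of TAC-luciferase with sham asks which sarcomere genes changed under pressure load. Acta1, Tpm2, Mybpc2, Mybpc3, Pdlim3, Pdlim5, Synpo2l, Des, Nrap and Smpx rose, by 1.21-fold to 2.87-fold, and Lmod3 and Unc45b fell, by 1.44-fold and 1.53-fold. That is 10 of 36 members higher, where 11.2% of all 12597 genes tested were higher, and 2 of 36 lower, where 14.9% were lower (limma, Benjamini-Hochberg adjusted p under 0.05). In all, 12 of 36 members (33.3%) were called against 26.1% of the genes tested. The members were chosen with earlier results of these data known. Their shares beside those of all genes, here and below, are therefore a description and do not test the set. The 3 hearts of TAC-luciferase and of sham did not overlap for 15 members (41.7%), against 37.4% of the genes tested. The median log2 fold change over the members was 0.07, against -0.01 over all genes tested. Most members of the core contractile apparatus, among them cardiac troponins T, I and C, tropomyosin 1, titin, the myomesins and alpha-actinin 2, did not pass. In TAC-HDAC4-NT against sham, 11 of 36 members were higher, where 10.5% of the genes tested were, and 1 was lower, where 12.3% were, and the 12 called were 33.3% of the members against 22.8% of the genes tested. Groups did not overlap for 13 members (36.1%) there, against 39.7% of the genes tested, so by this count the members were close to the background in both comparisons. Those higher were Acta1, Tpm2, Mybpc2, Mybpc3, Tcap, Pdlim3, Pdlim5, Synpo2l, Des, Nrap and Smpx, and the 1 lower was Unc45b. Both comparisons use the same 3 sham hearts, so their calls are not independent of each other.

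**Figure D1:**
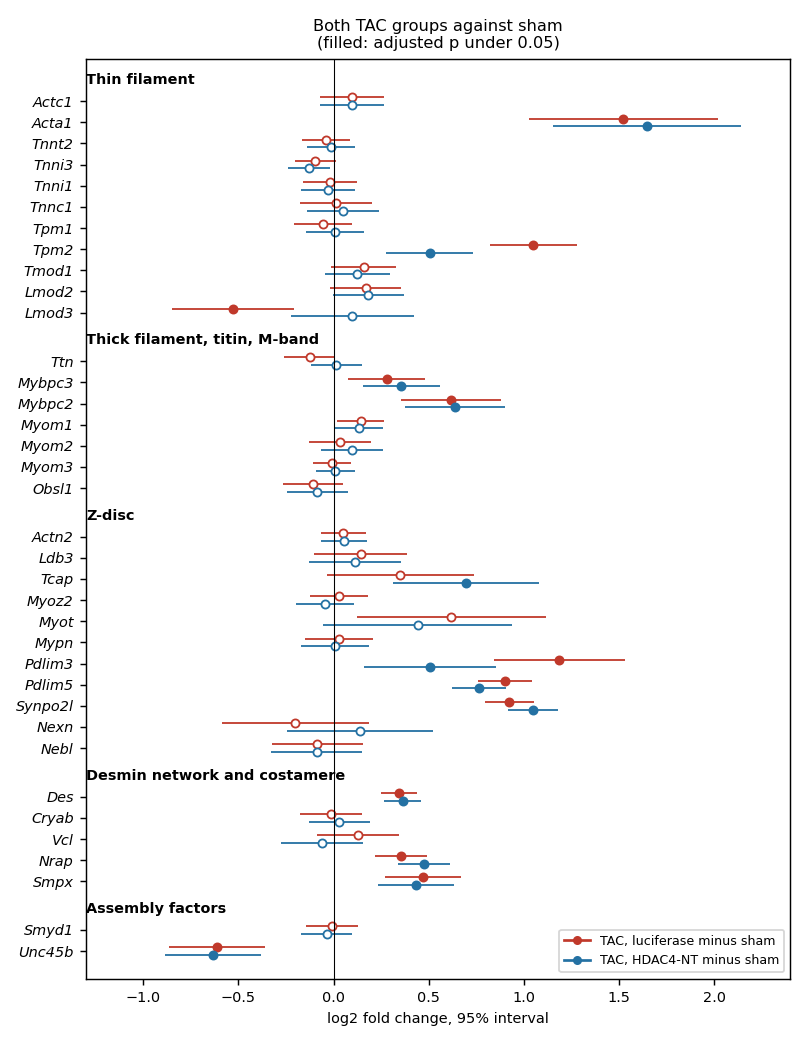
Log2 fold change of all 36 members in TAC-luciferase (red) and TAC-HDAC4-NT (blue) against sham, with bars for the 95% interval of the fit and filled points for an adjusted p under 0.05, grouped by place in the sarcomere. Acta1 lies farthest to the right in both comparisons, at 1.52 and 1.65, and troponin, titin and myomesin genes lie within 0.15 of 0.

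In the thin filament, Acta1, Tpm2 and Lmod3 were the members called with luciferase, and Acta1 and Tpm2 with HDAC4-NT. Acta1 (Entrez gene 11459) encodes skeletal alpha-actin, and Actc1 (11464) encodes cardiac alpha-actin, the main actin of the adult heart. Acta1 stood at 10.79, 11.52 and 11.73 in sham hearts 1, 2 and 3, at 12.56, 12.96 and 13.08 in the TAC-luciferase hearts, and at 12.93, 13.08 and 12.96 in the TAC-HDAC4-NT hearts. Every TAC heart lay above every sham heart, and the TAC groups overlapped. The log2 fold change against sham was 1.52 (SE 0.22, adjusted p 0.0011, 2.87-fold) with luciferase and 1.65 (SE 0.22, adjusted p 0.000806, 3.13-fold) with HDAC4-NT. Sham heart 1 was lowest, and without it the rise in TAC-luciferase was 1.25 and still called. Actc1 stood at 13.82 in sham heart 1 and at the array maximum of 14.11 on the other 8 arrays, so a rise could not be seen and its fold change of 0.10 (adjusted p 0.403) only describes sham heart 1. The difference between the values of the actin pair is not given, since with Actc1 at the maximum it would only restate the change of Acta1.

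The 250 bases before the annotated start of both actin genes are shown because Acta1 rose more than any other member and Actc1 is its cardiac counterpart. They are from RefSeq, assembly GRCm38.p6, Acta1 on the minus strand at chr8:123894776-123895025 and Actc1 on the minus strand at chr2:114052876-114053125. Capitals mark matches to the CArG box, the site of serum response factor, and to CATTCC, the core of the M-CAT element that TEAD factors bind.
Acta1: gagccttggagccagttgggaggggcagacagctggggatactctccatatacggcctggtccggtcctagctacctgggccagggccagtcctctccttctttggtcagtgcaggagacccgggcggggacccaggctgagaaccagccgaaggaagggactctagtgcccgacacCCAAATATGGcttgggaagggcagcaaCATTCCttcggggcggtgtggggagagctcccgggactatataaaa
Actc1: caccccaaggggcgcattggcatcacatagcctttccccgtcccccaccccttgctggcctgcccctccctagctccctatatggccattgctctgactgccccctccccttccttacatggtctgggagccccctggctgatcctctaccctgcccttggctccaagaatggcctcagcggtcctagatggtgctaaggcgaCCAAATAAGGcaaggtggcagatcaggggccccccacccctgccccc
The CArG box was searched for as CC and GG around a run of A or T only, and looser matches were not counted. Each window held 1 such match, 73 to 64 bases before the start in Acta1 and 47 to 38 in Actc1. That of Acta1 also held CATTCC, 46 to 41 bases before the start. RefSeq windows matched 30 of the 36 members (38 windows; unmatched were Lmod3, Cryab, Myot, Nexn, Tcap and Myom2), and both strands were searched. A CArG box was in 7 of the 38 (18.4%) against 1.47% of all 32851 windows, in 1 of the 12 windows of members that rose in either comparison and in 6 of the 26 of the other members, and among the members with one (Acta1, Actc1, Ldb3, Myom1, Nebl and Vcl) Acta1 alone passed the test. CATTCC was in 10 of 38 (26.3%) against 12.6% of all windows. It was in 3 of the 12 windows of members that rose (25%) and in 7 of the 26 of the other members (26.9%). No match overlapped another kind of motif. Windows of the same gene can overlap, as those of Ldb3 with a CArG box do, so a box may be counted more than once. These matches describe the letters in the windows and no binding was measured.

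Tropomyosins are coiled-coil proteins that lie along actin, and Tpm1 is the main form of the mouse heart while Tpm2 is a form of slow skeletal and smooth muscle. Tpm2 (22004) stood at 6.04, 6.19 and 6.28 in sham, 7.36, 7.12 and 7.18 in TAC-luciferase, and 6.83, 6.71 and 6.49 in TAC-HDAC4-NT. The 3 groups did not overlap, with HDAC4-NT hearts between the other 2 groups. Tpm2 rose by 1.05 (SE 0.10, adjusted p 0.000137, 2.07-fold) with luciferase and by 0.51 (SE 0.10, adjusted p 0.00647, 1.42-fold) with HDAC4-NT. Tpm1 (22003) lay between 11.70 and 11.92 on all 9 arrays and did not pass (-0.05 and 0.01). Tpm2 minus Tpm1 was -5.67 to -5.64 in sham, -4.62 to -4.50 in TAC-luciferase and -5.32 to -5.04 in TAC-HDAC4-NT, again without overlap (exact two-sided permutation p 0.1 for each of the 3 comparisons, the smallest that 3 against 3 allows, and 0.25 adjusted over 15 such tests on 5 paralogue pairs).

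**Figure D2:**
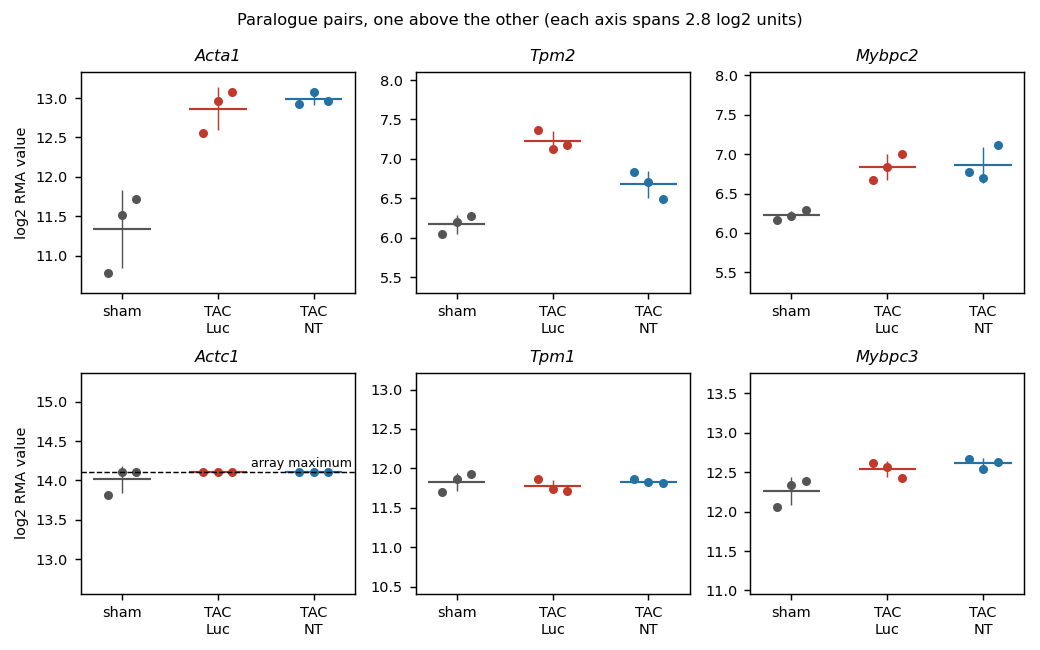
Log2 values of 3 paralogue pairs, with the same span of 2.8 log2 units on every vertical axis; points are hearts, horizontal lines group means and vertical lines 1 SD. Acta1 and Tpm2 moved between sham and TAC while Tpm1 stayed within 11.70 to 11.92 and Actc1 lay on the array maximum (dashed) on 8 of 9 arrays.

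Troponin T, I and C switch the thin filament on when calcium rises. Tnnt2 stood at 13.28, 13.41 and 13.38 in sham, 13.33, 13.33 and 13.28 in TAC-luciferase, and 13.41, 13.28 and 13.33 in TAC-HDAC4-NT, so the groups overlapped. Tnni3, the cardiac inhibitory subunit, stood at 13.41, 13.51 and 13.45 in sham, 13.38, 13.38 and 13.33 in TAC-luciferase, and 13.38, 13.33 and 13.28 in TAC-HDAC4-NT. All 6 TAC hearts lay below the sham hearts, by a log2 fold change of -0.10 and -0.13 that did not pass (adjusted p 0.182 and 0.0866). With no filter on low values, and with a random block for the sample code's number, Tnni3 passed in TAC-HDAC4-NT against sham. In other settings of the fit its adjusted p there reached 0.353 (limma). With cyclic loess scaling its log2 fold change in TAC-luciferase was -0.02 (limma, adjusted p 0.773). Tnni1, the slow skeletal subunit that the fetal heart uses before Tnni3, stood at 6.00, 6.09 and 5.86 in sham, 5.94, 5.95 and 6.01 in TAC-luciferase, and 6.00, 5.95 and 5.92 in TAC-HDAC4-NT. Its groups overlapped, with an interval of -0.16 to 0.12 for TAC-luciferase against sham. Tnni1 lay close to the filter level of 5.66, which limits what could be seen of a change. Tnni1 minus Tnni3 differed between groups by 0.02 to 0.10 (exact permutation p 0.1 to 0.6, at least 0.25 adjusted). Tnnc1 was within 0.05 of sham in both TAC groups.

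Tropomodulins and leiomodins sit at the pointed end of the thin filament, where tropomodulin caps it and leiomodins favour its assembly. Lmod3 (320502) stood at 8.85, 8.99 and 8.48 in sham, 7.99, 8.32 and 8.42 in TAC-luciferase, and 8.89, 8.97 and 8.77 in TAC-HDAC4-NT. TAC-luciferase hearts lay below all others and the other 2 groups overlapped. It fell by 0.53 (SE 0.14, adjusted p 0.0237) in TAC-luciferase and stood at 0.10 (SE 0.14, adjusted p 0.699) in TAC-HDAC4-NT. The call was lost without sham heart 1, sham heart 2 or TAC-luciferase heart 1 (adjusted p up to 0.0796), and with no filter or only the 6 arrays compared (up to 0.0543). Tmod1 and Lmod2 stood 0.12 to 0.18 above sham in the TAC groups and did not pass.

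Among the thick filament and M-band genes, the 2 myosin-binding proteins C rose in both TAC groups and the other 5 did not pass in either. Mybpc3 (17868), the cardiac form, which regulates the myosin heads and is a frequent site of hypertrophic cardiomyopathy mutations, stood at 12.05, 12.34 and 12.38 in sham, 12.62, 12.57 and 12.43 in TAC-luciferase, and 12.66, 12.55 and 12.63 in TAC-HDAC4-NT. Both TAC groups lay above sham, but TAC-luciferase heart 3 did so by little. The log2 fold changes were 0.28 (SE 0.09, adjusted p 0.0475) and 0.35 (SE 0.09, adjusted p 0.0196). With luciferase the call was lost without any 1 of 7 arrays, all but sham heart 3 and TAC-luciferase heart 3 (adjusted p up to 0.118), and the log2 fold change was 0.18 without sham heart 1. It was also lost with no filter, array weights, only the 6 arrays compared, a block for replicate number, the mean of 4 atrial genes as a covariate and without TAC-luciferase hearts 2 and 3 (adjusted p up to 0.101). With HDAC4-NT it was lost without HDAC4-NT heart 1 or 3 (adjusted p up to 0.0727).

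Mybpc2 (233199), the fast skeletal form, stood at 6.17, 6.21 and 6.29 in sham, 6.67, 6.84 and 7.01 in TAC-luciferase, and 6.77, 6.69 and 7.12 in TAC-HDAC4-NT. Every TAC heart was above every sham heart, by 0.61 (SE 0.12, adjusted p 0.00452) and 0.64 (SE 0.12, adjusted p 0.00417). The call with luciferase was lost when TAC-luciferase hearts 2 and 3 were both left out (adjusted p 0.0873). Of 7 skeletal muscle markers, Myh1, Mylpf and Pvalb lay below the filter level of 5.66 on all arrays, and none of the 3 tested passed. Myl1 had the highest level of them, with means of 8.33 in sham, 8.755 in TAC-luciferase and 8.68 in TAC-HDAC4-NT. It stood 0.425 and 0.349 above sham, with overlap (limma, adjusted p 0.147 and 0.251). The mean level over all 7 was 5.94 to 6.03 in sham, 6.00 to 6.12 in TAC-luciferase and 6.01 to 6.05 in TAC-HDAC4-NT.

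Ttn encodes titin, the giant spring protein, and did not pass in any comparison. It stood at 12.48, 12.37 and 12.34 in sham, 12.23, 12.23 and 12.36 in TAC-luciferase, and 12.36, 12.43 and 12.44 in TAC-HDAC4-NT. The groups overlapped in each pairing, apart by -0.13 (adjusted p 0.155) and 0.01 (adjusted p 0.907) from sham. Myom2, a myomesin that cross-links thick filaments at the M-band, stood at 11.50, 11.49 and 11.33 in sham, 11.60, 11.43 and 11.39 in TAC-luciferase, and 11.47, 11.59 and 11.55 in TAC-HDAC4-NT, with full overlap. Myom1 was 0.14 higher in TAC-luciferase, with no overlap with sham, and did not pass (adjusted p 0.0853), though it passed against sham in both TAC groups with cyclic loess scaling. Myom3 lay between 5.71 and 5.81, close to the filter level, and Obsl1, an obscurin relative, stood at -0.11 and -0.09. Myom2 minus Myom1 and Mybpc2 minus Mybpc3 differed between groups by -0.11 to 0.34 (exact permutation p 0.2 to 0.8).

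The Z-disc members that rose with luciferase were 3 of 11, Pdlim3, Pdlim5 and Synpo2l, and with HDAC4-NT 4 of 11, these and Tcap. Synpo2l (68760), a Z-disc protein of the synaptopodin family also known as CHAP, stood at 9.27, 9.42 and 9.42 in sham, 10.24, 10.36 and 10.27 in TAC-luciferase, and 10.38, 10.44 and 10.43 in TAC-HDAC4-NT. The hearts of each group lay within 0.15 of one another, and the 3 groups did not overlap. Its log2 fold changes were 0.92 (SE 0.06, adjusted p 1.72e-05, 1.89-fold) and 1.05 (SE 0.06, adjusted p 7.74e-06, 2.07-fold), with the smallest p of any member in both comparisons. Pdlim5 (56376), a PDZ and LIM domain protein of the enigma family that binds alpha-actinin, stood at 10.66, 10.67 and 10.81 in sham, 11.52, 11.63 and 11.70 in TAC-luciferase, and 11.49, 11.46 and 11.49 in TAC-HDAC4-NT. TAC hearts lay above sham hearts by 0.90 (SE 0.06, adjusted p 2.93e-05) and 0.76 (SE 0.06, adjusted p 6.71e-05), and again no groups overlapped.

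Pdlim3 (53318), the actinin-associated LIM protein ALP, stood at 7.51, 7.44 and 7.62 in sham, 8.54, 8.87 and 8.72 in TAC-luciferase, and 8.06, 7.67 and 8.35 in TAC-HDAC4-NT. As for Tpm2, the HDAC4-NT hearts lay between the other 2 groups, here with HDAC4-NT heart 2 only just above sham. Pdlim3 rose by 1.19 (SE 0.15, adjusted p 0.000619, 2.28-fold) and by 0.51 (SE 0.15, adjusted p 0.0417, 1.42-fold). The call with HDAC4-NT was lost without any 1 of 6 arrays, each sham heart, TAC-luciferase heart 3 and HDAC4-NT hearts 1 and 3 (adjusted p up to 0.118), and also with no filter or the mean of 4 atrial genes as a covariate (up to 0.0879).

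The windows before the starts of Mybpc3 and Synpo2l, members that rose in both comparisons, are shown because they hold a MEF2 site, and that of Pdlim3, which also rose in both, because it holds CATTCC and no MEF2 site. MEF2 factors bind this site, and class IIa histone deacetylases such as HDAC4 are known to repress them. The sequences are from RefSeq, GRCm38.p6, at chr2:91117894-91118143 (plus strand), chr14:20668355-20668604 (minus), chr14:20664575-20664824 (minus, a further annotated start of Synpo2l) and chr8:45885237-45885486 (plus). Capitals mark MEF2 sites and CATTCC or its reverse complement.
Mybpc3: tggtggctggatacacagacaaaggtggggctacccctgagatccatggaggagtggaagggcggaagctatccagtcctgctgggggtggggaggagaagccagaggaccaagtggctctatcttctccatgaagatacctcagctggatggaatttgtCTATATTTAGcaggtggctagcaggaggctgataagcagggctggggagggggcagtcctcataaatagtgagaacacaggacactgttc
Synpo2l, first window: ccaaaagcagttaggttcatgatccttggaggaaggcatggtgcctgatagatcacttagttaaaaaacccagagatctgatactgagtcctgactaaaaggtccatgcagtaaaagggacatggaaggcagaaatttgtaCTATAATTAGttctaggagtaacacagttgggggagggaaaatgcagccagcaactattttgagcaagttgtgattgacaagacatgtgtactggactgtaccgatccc
Synpo2l, other window: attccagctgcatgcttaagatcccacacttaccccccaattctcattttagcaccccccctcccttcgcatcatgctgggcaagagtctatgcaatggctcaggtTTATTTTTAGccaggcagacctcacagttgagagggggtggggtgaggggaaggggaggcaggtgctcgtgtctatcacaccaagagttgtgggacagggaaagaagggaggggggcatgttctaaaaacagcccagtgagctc
Pdlim3: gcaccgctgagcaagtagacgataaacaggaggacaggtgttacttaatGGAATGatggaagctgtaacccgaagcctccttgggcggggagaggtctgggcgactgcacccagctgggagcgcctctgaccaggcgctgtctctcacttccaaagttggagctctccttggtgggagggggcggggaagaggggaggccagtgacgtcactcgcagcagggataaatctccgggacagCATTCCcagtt
A MEF2 site was in 6 of 38 member windows (15.8%) against 2.92% of all windows. The 12 windows of members that rose in either comparison belong to 10 genes. Of these windows 3 held one (25%), that of Mybpc3 and both of Synpo2l. Of the 26 windows of the other members 3 did (11.5%), those of Myom3, Myoz2 and Ttn. Between the TAC groups, Mybpc3 and Synpo2l stood 0.075 and 0.125 higher with HDAC4-NT and did not pass (limma, adjusted p 0.795 and 0.363). Whether the sites bear on these values was not tested. Acta1 had none in its window. The MEF2 site lay 90 to 81 bases before the start in Mybpc3, and in Synpo2l 109 to 100 bases before the first start and 144 to 135 before the other. Pdlim3 held CATTCC 11 to 6 bases before the start and its reverse complement 201 to 196 before it.

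Tcap (21393), or telethonin, caps the amino-terminal end of titin in the Z-disc. It stood at 9.05, 8.57 and 8.47 in sham, 9.21, 9.17 and 8.77 in TAC-luciferase, and 9.60, 9.38 and 9.21 in TAC-HDAC4-NT. HDAC4-NT hearts lay above sham without overlap, TAC-luciferase hearts overlapped with sham, and sham heart 1 was the highest of its group. Tcap rose by 0.70 (SE 0.17, adjusted p 0.0169, 1.62-fold) with HDAC4-NT and stood at 0.35 (SE 0.17, adjusted p 0.17) with luciferase. Without sham heart 1 it passed with luciferase too (0.53, adjusted p 0.0437), and without sham heart 2, sham heart 3 or HDAC4-NT heart 1 its call with HDAC4-NT was lost (adjusted p up to 0.0677).

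Actn2, alpha-actinin 2, which cross-links the thin filaments in the Z-disc, stood at 12.95, 12.79 and 12.82 in sham, 12.93, 12.93 and 12.86 in TAC-luciferase, and 12.90, 12.88 and 12.95 in TAC-HDAC4-NT. The groups overlapped fully and the interval for TAC-luciferase against sham was -0.07 to 0.17. Ldb3 (the cypher protein), Myoz2 (a calsarcin, which tethers calcineurin), Mypn (myopalladin) and Nebl (nebulette) lay between -0.09 and 0.14 from sham in both TAC groups. Myot, or myotilin, had wide spread, at 9.69, 10.17 and 10.35 in sham, 10.19, 11.01 and 10.87 in TAC-luciferase, and 10.35, 10.62 and 10.58 in TAC-HDAC4-NT. Its change of 0.62 with luciferase (SE 0.22, adjusted p 0.0684) did not pass, nor did that of 0.44 with HDAC4-NT. With luciferase it passed without TAC-luciferase heart 1, with a filter at the 60th percentile, with array weights and with either block, and with HDAC4-NT under the replicate block. Nexn, nexilin, stood at -0.20 and 0.14 with an SE of 0.17.

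In the desmin network and at the costamere, Des, Nrap and Smpx rose in both TAC groups, and Cryab and Vcl did not pass. Des (13346) encodes desmin, the intermediate filament around the Z-discs, and stood at 12.59, 12.61 and 12.57 in sham, 12.95, 12.95 and 12.90 in TAC-luciferase, and 12.95, 12.93 and 12.98 in TAC-HDAC4-NT. The SD within each group was 0.02 to 0.03, and the rise was 0.34 (SE 0.04, adjusted p 0.000501, 1.27-fold) and 0.36 (SE 0.04, adjusted p 0.000394, 1.29-fold). Nrap (18175), which anchors terminal actin filaments at the intercalated disc, stood at 10.81, 10.82 and 10.72 in sham, 11.10, 11.16 and 11.16 in TAC-luciferase, and 11.18, 11.37 and 11.22 in TAC-HDAC4-NT. It was higher by 0.35 (adjusted p 0.00276) and 0.47 (adjusted p 0.000626), each with an SE of 0.06, and its 3 groups did not overlap. The call with luciferase was lost without TAC-luciferase hearts 2 and 3 (adjusted p 0.0612). Smpx (66106), a small stretch-responsive muscle protein of the X chromosome, stood at 10.70, 10.81 and 10.88 in sham, 11.38, 11.27 and 11.15 in TAC-luciferase, and 11.14, 11.14 and 11.40 in TAC-HDAC4-NT. TAC hearts lay above sham by 0.47 (adjusted p 0.00433) and 0.43 (adjusted p 0.007), each with an SE of 0.09. Cryab, the small heat shock protein that chaperones desmin, stood at -0.01 and 0.03, and Vcl, vinculin, at 0.13 and -0.06.

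Of the 2 assembly factors, Unc45b (217012), the muscle chaperone that folds the myosin head, stood at 8.94, 9.04 and 9.12 in sham, 8.36, 8.34 and 8.57 in TAC-luciferase, and 8.37, 8.64 and 8.19 in TAC-HDAC4-NT. All 6 TAC hearts lay below all sham hearts. It fell by 0.61 (SE 0.11, adjusted p 0.00392) and by 0.63 (SE 0.11, adjusted p 0.00358). Smyd1, a muscle methyltransferase that also takes part in myosin assembly, stood at -0.01 and -0.04 from sham.

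**Figure D3:**
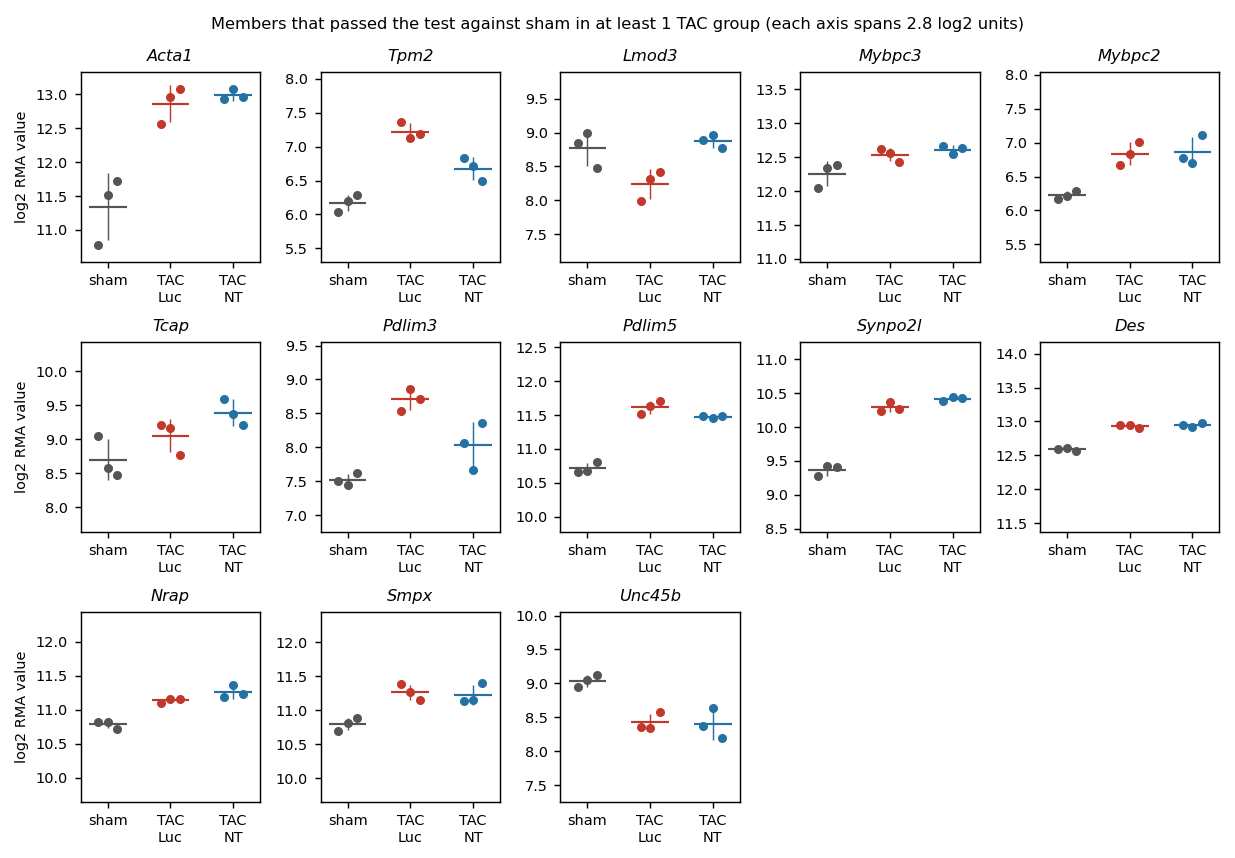
Log2 values of the 13 members that passed against sham in at least 1 TAC group, 1 panel a gene with the same span of 2.8 log2 units; points are hearts, horizontal lines group means and vertical lines 1 SD. In Tpm2 and Pdlim3 the HDAC4-NT hearts sit between sham and TAC-luciferase, and in Lmod3 the TAC-luciferase hearts sit below both other groups.

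The comparison of TAC-HDAC4-NT with TAC-luciferase asks whether the HDAC4 fragment changed these genes in the loaded heart. No member passed, where 0.254% of the genes tested were called, and 4 of 36 members (11.1%) had an unadjusted p under 0.05, against 14.3% of the genes tested (limma). The median size of the difference was 0.04 log2 units over the members and 0.06 over all genes tested. The largest were Pdlim3 at -0.68 (SE 0.15, 95% interval -1.02 to -0.33, adjusted p 0.086), Lmod3 at 0.63 (SE 0.14, interval 0.30 to 0.95, adjusted p 0.0868) and Tpm2 at -0.55 (SE 0.10, interval -0.77 to -0.32, adjusted p 0.0585), each without overlap between the groups. These and Ttn, at 0.14 (interval 0.01 to 0.27, adjusted p 0.321), were the 4 with an unadjusted p under 0.05, while Tcap and Nexn stood at 0.34 with wide intervals (adjusted p 0.405 and 0.411). The groups did not overlap for 7 members (19.4%), which besides Lmod3, Tpm2 and Pdlim3 were Nrap, Pdlim5, Synpo2l and Tcap, against 20.4% of the genes tested.

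The calls in this comparison depended on the hearts and the fit. Without TAC-luciferase heart 1, Tpm2 (adjusted p 0.0337) and Pdlim3 (adjusted p 0.0325) passed. Over all genes tested 692 rather than 32 were then called, 5.52% rather than 0.254%. The code of that heart opens with 8, and those of TAC-luciferase hearts 2 and 3 with 9. Tpm2, Pdlim3 and Lmod3 passed with array weights, where 6.57% of all genes tested were called. Tpm2 also passed with a random block for the sample code's number (1.41% of all genes tested) and a robust prior with a trend (0.595%). A filter at the 60th percentile gave the same call (1.2%). Each of these settings called a larger share of all genes than the main fit did. Lmod3 fell against sham in TAC-luciferase and did not pass in TAC-HDAC4-NT, and Tcap the reverse, but neither gene differed between the TAC groups beyond the threshold (adjusted p 0.0868 and 0.405). The intervals were narrow for several core genes, at -0.10 to 0.15 for Tnnt2, -0.14 to 0.07 for Tnni3, -0.12 to 0.12 for Actn2 and -0.08 to 0.12 for Des, and wide for Acta1, at -0.37 to 0.62. Tnnt2, Tnni3, Actn2 and Des lay among the 50 highest values on every array, and Acta1 on every TAC array. A gene there can take only a few values, the same on each array, so a narrow interval does not show that the transcript was unchanged. All 3 groups were apart from one another for 5 members (Tpm2, Pdlim3, Pdlim5, Synpo2l and Nrap), 13.9% of the members against 5.39% of the genes tested. HDAC4-NT hearts lay between the other groups in Tpm2, Pdlim3 and Pdlim5, and above TAC-luciferase in Synpo2l and Nrap.

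**Figure D4:**
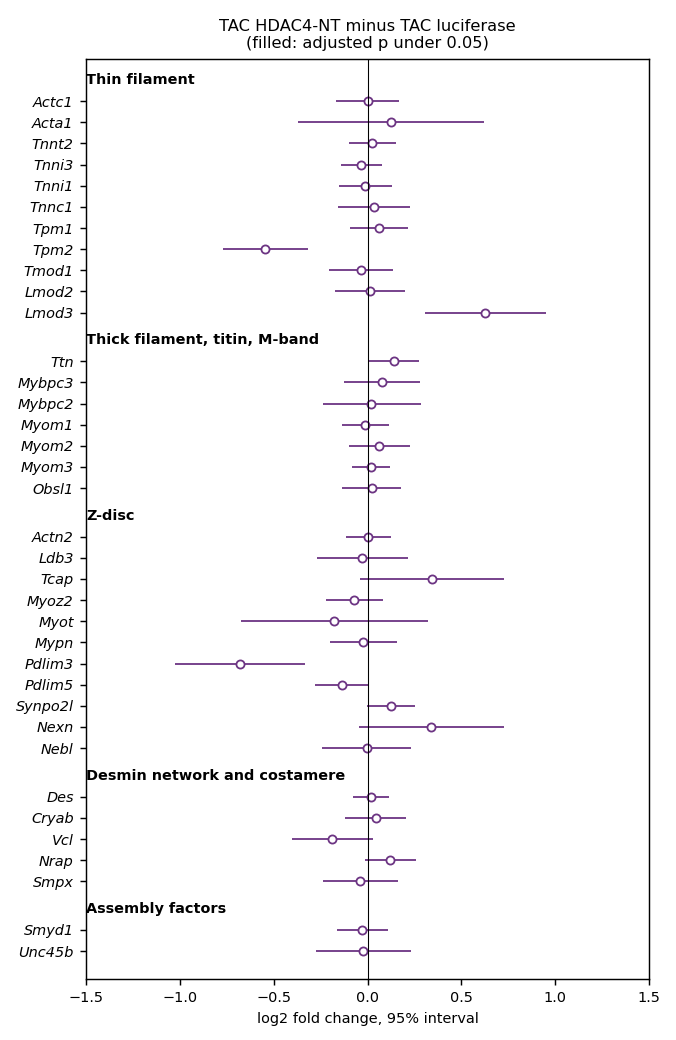
Log2 difference of TAC-HDAC4-NT minus TAC-luciferase for all 36 members, with bars for the 95% interval of the fit; no point is filled because no adjusted p was under 0.05. Pdlim3 and Tpm2 lie lowest, at -0.68 and -0.55, and Lmod3 highest, at 0.63.

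Other genes of the sarcomere, its Z-disc and its membrane contacts were taken from lists of 57 genes that are not members, of which 53 were tested. In TAC-luciferase against sham 15 were higher and 7 lower, where 11.2% and 14.9% of all genes tested were. In TAC-HDAC4-NT against sham 13 were higher and 6 lower, where 10.5% and 12.3% were. Between the TAC groups none passed, where 0.254% of all genes tested were called. The lists, of which that of the Z-disc was the longest, were chosen with earlier results of these data known. Z-disc genes made up most of the rises, 10 of 21 tested with luciferase and 7 of 21 with HDAC4-NT, among them Fhl1, a LIM domain protein (1.49 and 1.56 log2 units), Xirp2 and Xirp1, Xin actin-binding repeat proteins (1.32 and 1.58, and 1.13 and 0.57), and Actn1, a non-muscle alpha-actinin (1.13 and 0.98), while Cmya5 (myospryn) fell by 0.37 and by 0.43. Of 13 other thin filament genes tested, Neb (0.50 with luciferase), Tmod3 (0.37 and 0.31) and Cfl2 (0.19 and 0.33) rose, and Tmod4, the skeletal tropomodulin, fell by 1.18 and by 1.22 and Fhod3, a sarcomere formin, by 0.49 and by 0.48. Neb stood at 0.15 with HDAC4-NT and did not pass (adjusted p 0.286). Of 6 thick filament genes tested, Myh7, the beta myosin heavy chain, rose by 2.42 and 2.32, Myh7b fell by 0.64 and by 0.75 and Myl3 by 0.22 and by 0.21, and Myh6 fell with luciferase by 0.23. Of 9 costamere and intercalated disc genes Tln1 (talin 1) rose by 0.67 and 0.73, Cdh2 (0.38) and Dmd (0.31) rose with HDAC4-NT, and Ctnna3 fell by 0.35 and by 0.39, while none of 4 further assembly genes passed.

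These are whole-heart samples, so fewer cells of a type and less RNA per cell cannot be told apart, and several members are also made by other cells. The mean log2 level of 7 cardiomyocyte genes outside the sarcomere was 12.04 to 12.09 in sham, 12.08 to 12.10 in TAC-luciferase and 12.04 to 12.11 in TAC-HDAC4-NT, with Casq2 and Slc8a1 higher in both TAC groups, Ckm lower in both and Atp2a2 lower with HDAC4-NT. Smooth muscle makes Tpm2, Des, Vcl and Pdlim3 too. The mean of its 6 markers was 8.03 to 8.14 in sham, 8.01 to 8.14 in TAC-luciferase and 8.05 to 8.09 in TAC-HDAC4-NT. None of 5 tested was called in TAC-luciferase against sham, and Myh11 was lower with HDAC4-NT. The mean covers moves both ways, with Myh11 at -0.20 and -0.24 from sham and Tagln, which did not pass, at 0.20 and 0.19. The mean of 6 fibroblast markers was 8.00 to 8.11 in sham, 8.77 to 8.94 in TAC-luciferase and 8.94 to 9.03 in TAC-HDAC4-NT, with 4 of 6 (Col1a1, Col1a2, Dcn and Lum) higher in both, and its part in the rise of Tpm2 or Pdlim3 was not tested. The mean of 4 atrial genes ranged from 6.43 to 7.49 in sham, 5.98 to 8.07 in TAC-luciferase and 5.94 to 6.94 in TAC-HDAC4-NT, highest in TAC-luciferase heart 3. With it as a covariate, 11 members were called in each comparison with sham, where 24.6% (luciferase) and 21.2% (HDAC4-NT) of the genes tested were.

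Some hearts stood farther from their group than others over these genes. Sham heart 1 was the farthest of its group from the group mean for 20 of 36 members, where it was so for 34.2% of the genes tested, and the lowest for 19, where it was so for 32.3%. Acta1, Actc1, Tnnc1, Ldb3, Myot and Mybpc3 were among those lowest in it, while Tcap and Nexn were highest in it. Without sham heart 1, 11 members were called in each comparison with sham, where 19.3% (luciferase) and 18.4% (HDAC4-NT) of the genes tested were. The median distance of a member from its group mean was 0.09, 0.06 and 0.10 log2 units in sham hearts 1, 2 and 3, and 0.03 to 0.07 in the TAC hearts.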

How the data were processed

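Expression was measured in 9 whole mouse hearts on Affymetrix arrays. The deposited log2 values are the authors' RMA output, as the submitters' processing notes name that method. Its version, the probe set definitions and the build were not stated. RMA shrinks fold changes of dim probe sets. The number of arrays limits the precision, with a median SE of 0.07 for a log2 fold change. Of 21225 probe sets, 20239 had 1 gene symbol, all matched by gene ID to a RefSeq table (GRCm38.p6), and 986 were not listed and are unnamed here.

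A gene entered the test with 3 or more of its 9 values over the 40th percentile of the whole table (5.66), as 12597 genes did. One linear model over all 9 arrays was fitted with limma 3.58.1 in R 4.3.3 (residual degrees of freedom 6, prior 3.23). Calls were made at a Benjamini-Hochberg adjusted p under 0.05 over all genes tested. Log2 differences between paralogues were compared by an exact permutation test. Groups came from the sample titles. Values of every heart are given for members called in any comparison and for 10 genes named whatever their values, and other genes by size of change among those called. Myot was given so after its values were seen. The scripts were tested on simulated data. Figures used matplotlib 3.10.9 in Python 3.11.15. The members and lists were chosen with earlier results of these data known. Alternatives covered the filter, prior, scaling, array weights, blocks, thresholds and leaving out arrays.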

Additional observations from a re-analysis of the deposited data

How the results depend on the processing

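Beside a count of members called, brackets give the share of all genes tested that was called. TAC-luciferase against sham gave 12 (26.1%), and 10 to 12 (19.3% to 25.7%) when 1 array was left out in turn. TAC-HDAC4-NT against sham gave 12 (22.8%) and 9 to 12 (15.3% to 25.1%). TAC-HDAC4-NT against TAC-luciferase gave 0 (0.254%) and 0 to 2 (0.008% to 5.52%). With a minimum of 1.5-fold, 7 members were called against sham with luciferase and 6 with HDAC4-NT. The share of all genes tested at that minimum was not counted. Between the TAC groups the count was 1 (Tpm2) with a filter at the 60th percentile (1.2%) and with a trended and robust prior (0.595%). It was also 1 (Tpm2) with a random block for the number that opens the sample code (1.41%, correlation -0.113). With array weights it was 3 (6.57%), and without TAC-luciferase heart 1 it was 2 (5.52%). No filter, cyclic loess scaling, only the 6 arrays compared, the replicate block and the atrial covariate gave 0 (0% to 0.841%). Cyclic loess scaling gave 13 members called in TAC-luciferase against sham (25%), 0 between the TAC groups (0.318%) and 13 in TAC-HDAC4-NT against sham (22.3%). No member's call was reversed. The labels do not say that replicate numbers pair the hearts. Deviations of same-numbered hearts correlated at -0.12 to 0.20, and those of differently numbered hearts at -0.25 to 0.22. With 3 hearts in a group these values cannot show whether same-numbered hearts share more than a number. With the replicate block, 13 (24.3%), 0 (0.841%) and 13 (21.2%) members were called in the same order. Over all genes tested, 106 rather than 32 were called between the TAC groups. The replicate block ended the call of Mybpc3 in TAC-luciferase against sham and added Myot and Tcap there, and it added Myot in TAC-HDAC4-NT against sham. Without TAC-luciferase hearts 2 and 3, where the 1 remaining heart is assumed to vary like the others, 9 members were called in TAC-luciferase against sham, and Nrap, Mybpc2 and Mybpc3 were not. No named member reversed a call under any setting run.

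Leaving out 1 array, the difference of Tpm2 minus Tpm1 from sham ranged from 1.08 to 1.14 in TAC-luciferase. No depth or detection p was given, so signal over background was not tested. Members close to the filter level (Myom3 and Tnni1), or low in sham (Tpm2 and Mybpc2, with sham means of 6.17 and 6.22), limit what could be seen. So do members at the array maximum (Actc1) or near it (Tnnt2 and Tnni3, and in the TAC hearts Acta1, at ranks 20 to 49).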
